A study of Mus musculus with 20 samples.

Results

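Interferon-stimulated genes are the genes that cells switch on when interferon reaches them, and their products block the translation, replication and release of viruses. A list of 47 such genes was followed here in cultures of mouse articular chondrocytes, the cells of joint cartilage. A gene was found by its symbol in the gene table and kept where its FPKM (fragments per kilobase, scaled to library depth) reached 1 in 5 or more of the 20 libraries. The rule kept 43 of the 47 genes, among 12752 kept of the 54532 genes in the table. The cells came from mice 6 weeks old and spent 48 h in culture with DMSO alone (Vehicle), with 20 µM 25-hydroxycholesterol (25HC), with 20 µM 25-hydroxycholesterol-3-sulfate (25HC3S) or with 2 µM GW3965, a synthetic agonist of liver X receptors. Each of the 4 groups had 5 libraries. 25HC3S is 25HC with a sulfate on its 3-hydroxyl group. The labels do not give the strain or sex of the mice, nor whether the 5 libraries are separate animals or wells, so the p-values rest on a spread between libraries that may be technical.

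Type I interferons bind the receptor pair Ifnar1 and Ifnar2, whose kinases Jak1 and Tyk2 phosphorylate Stat2. Phosphorylated Stat2 acts with Irf9 at the interferon-stimulated response element, a pair of GAAA repeats that is read on either strand. Interferon gamma acts at another element, and Irf7 raises interferon production itself. Many of the genes keep a basal level without added interferon. Ch25h, the enzyme that makes 25HC, is known as an interferon-induced gene of macrophages.

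The promoters of members were searched for the core of this element. Of the 47 genes, 36 had a promoter in the RefSeq table used (build GRCm38.p6, 250 bases before to 50 after the start site, 300 in all). The core searched was GAAA, any 2 bases and GAAA again, on either strand. It was in a promoter of 18 of the 36 genes (50%), against 3.99% of all 27025 genes in that table and 3.44% of its 32851 promoters. At least 2 cores were in 7 of the 36 (19.4%), against 0.266% of all genes. The core of the interferon gamma element, TTCNNNGAA, was in 9 of the 36 (25%), against 9.55% of all genes. The matches of the 2 motifs overlapped once, in Bst2. A match is a description of letters and does not show binding.

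The whole promoters of 5 members are shown because the results below turn on these genes. Capitals mark the cores. Ifit1 (chr19:34640639-34640938, plus strand), whose product binds foreign RNA caps, has cores that start 104 and 85 bases before the start site. Isg15 (chr4:156200769-156201068, minus strand), a ubiquitin-like modifier, has 3 overlapping cores at 78, 72 and 66. Ifit3 (chr19:34583279-34583578, plus strand), a partner of Ifit1, has cores at 156 and 122. Cxcl10 (chr5:92348840-92349139, minus strand), a chemokine for T cells, has a single core at 213. Slfn9 (chr11:82991781-82992080, minus strand), of the Schlafen family, has a core at 45.
Ifit1: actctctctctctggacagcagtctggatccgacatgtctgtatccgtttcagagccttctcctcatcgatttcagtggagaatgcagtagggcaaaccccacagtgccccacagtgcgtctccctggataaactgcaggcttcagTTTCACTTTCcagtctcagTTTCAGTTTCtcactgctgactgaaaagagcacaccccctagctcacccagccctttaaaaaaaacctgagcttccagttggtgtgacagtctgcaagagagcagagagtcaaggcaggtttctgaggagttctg
Isg15: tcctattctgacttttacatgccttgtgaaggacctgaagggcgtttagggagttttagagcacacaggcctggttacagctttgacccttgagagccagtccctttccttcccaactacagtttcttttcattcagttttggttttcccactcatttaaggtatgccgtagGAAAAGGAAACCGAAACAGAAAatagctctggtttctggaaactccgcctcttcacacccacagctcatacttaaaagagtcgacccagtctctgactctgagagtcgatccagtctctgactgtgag
Ifit3: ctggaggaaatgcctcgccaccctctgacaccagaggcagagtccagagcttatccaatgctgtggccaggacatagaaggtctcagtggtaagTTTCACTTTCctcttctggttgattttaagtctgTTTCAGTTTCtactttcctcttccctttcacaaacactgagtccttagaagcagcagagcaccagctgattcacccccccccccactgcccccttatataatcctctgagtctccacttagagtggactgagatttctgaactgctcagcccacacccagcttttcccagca
Cxcl10: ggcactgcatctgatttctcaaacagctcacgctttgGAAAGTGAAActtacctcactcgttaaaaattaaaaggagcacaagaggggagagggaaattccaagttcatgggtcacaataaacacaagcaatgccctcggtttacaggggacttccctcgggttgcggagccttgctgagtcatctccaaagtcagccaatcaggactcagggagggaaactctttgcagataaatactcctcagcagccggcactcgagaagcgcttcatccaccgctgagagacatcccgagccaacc
Slfn9: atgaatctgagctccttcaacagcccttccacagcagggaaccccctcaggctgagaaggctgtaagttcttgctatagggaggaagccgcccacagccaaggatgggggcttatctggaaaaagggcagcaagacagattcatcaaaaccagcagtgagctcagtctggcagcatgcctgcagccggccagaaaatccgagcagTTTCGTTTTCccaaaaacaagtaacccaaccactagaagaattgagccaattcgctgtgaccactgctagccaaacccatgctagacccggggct

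The promoter of Ifit3b, a close copy of Ifit3 in the same cluster, shares a run of 169 identical bases with that of Ifit3, and both cores lie in that run. Shorter stretches around the cores are shown for 8 further members that passed a test below. They are from Stat2 (chr10:128270266-128270295), Gbp2 (chr3:142620594-142620623), Gbp3 (chr3:142559989-142560024), Gbp7 (chr3:142530273-142530302), Rsad2 (chr12:26456553-26456582), Slfn8 (chr11:83020839-83020868), Trim30a (chr7:104465210-104465239) and Ifih1 (chr2:62646206-62646233), each written on the strand of its gene.
Stat2: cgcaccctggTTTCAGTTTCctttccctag
Gbp2: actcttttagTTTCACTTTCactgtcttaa
Gbp3: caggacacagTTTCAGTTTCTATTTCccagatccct
Gbp7: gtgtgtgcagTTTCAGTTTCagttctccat
Rsad2: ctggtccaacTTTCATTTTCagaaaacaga
Slfn8: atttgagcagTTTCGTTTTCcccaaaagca
Trim30a: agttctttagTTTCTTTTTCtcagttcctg
Ifih1: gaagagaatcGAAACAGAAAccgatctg

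The letters of these windows show the same core with different spacers, and in Gbp3 the cores run into each other. Slfn5, also called below, held a core 155 bases before the start site, in a stretch rich in A that is not shown. Among the members called below with all libraries whose promoters were in the table, Ifit2, Ifi44, Oasl2 and Cmpk2 held no match in this window. Irf7, called below without the libraries that stand apart, held none either.

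**Figure D1:**
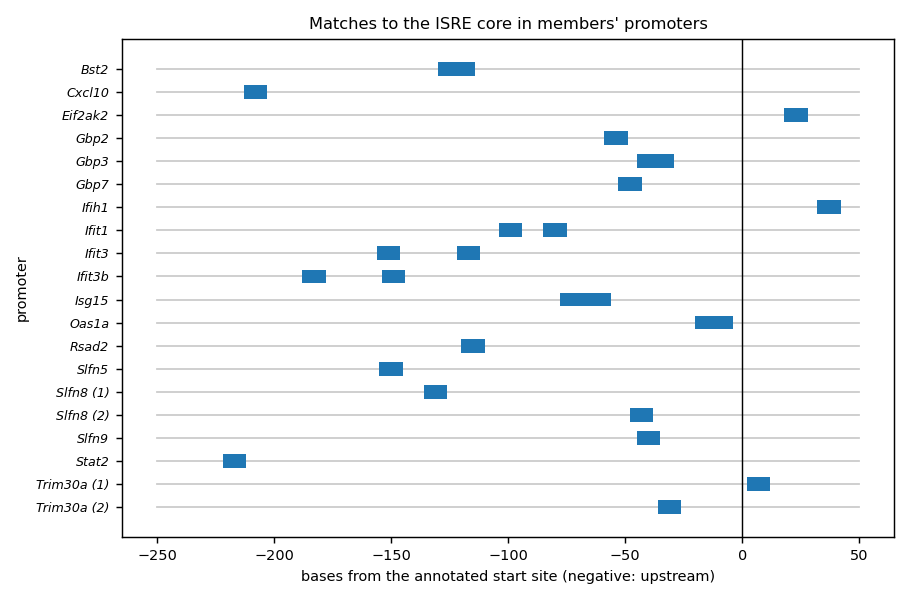
Position of each match to the core of the interferon-stimulated response element in promoters of members, in bases from the annotated start site (negative is upstream). A bar is a match or overlapping matches, a grey line is the 300 bases searched, and a number in brackets tells apart 2 promoters of the same gene. The cores of Ifit1 lie at 104 and 85 bases upstream and that of Cxcl10 at 213.

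The libraries held 14653777 to 19365220 fragments in genes. In 4 libraries, Vehicle replicates 2, 3 and 4 and 25HC3S replicate 1, only 237 to 1171 genes had exactly 1 fragment, against 1808 to 2057 in the other 16. The mitochondrial share of fragments was 0.369 to 4.07% in those 4 and 0.889 to 1.41% in the others. The counts of calls that use Vehicle or 25HC3S are therefore also given without these 4 libraries, which leaves 2 Vehicle and 4 25HC3S libraries. No 25HC or GW3965 library stood apart in this way. Members of the list are not independent of each other in position: 8 clusters hold 23 of the 47 genes, among them Ifit2, Ifit3, Ifit3b and Ifit1 at chr19:34550694-34650009 and Slfn5, Slfn9, Slfn8 and Slfn2 at chr11:82951349-83070678 (positions as deposited, equal for 46 of the 47 genes to GENCODE M21 on GRCm38). Near-identical relatives such as Ifit3 and Ifit3b or Slfn8 and Slfn9 may share or lose fragments, and 10 members overlap another kept gene, Dtx3l with Parp9 and Psmb9 with Tap1 among them, so their values are uncertain to that extent.

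The members spanned a wide range of levels. With 25HC the highest were Lgals3bp, a secreted glycoprotein, with 98.1 ± 7.08 FPKM (SD, n = 5), Ifi27 with 84.5 ± 3.98 and Bst2, which tethers virus particles to the cell surface, with 56.8 ± 7.52. Samhd1, which breaks down nucleotides, had 22.6 ± 0.286 and Isg15 14.1 ± 2.69. The lowest were Cmpk2, a nucleotide kinase, with 1.20 ± 0.394 and Rsad2 (viperin), which makes a chain-terminating nucleotide, with 1.29 ± 0.458. Psmb9, an immunoproteasome subunit, and Gbp7 followed, and these 4 means differed by less than the SD of Cmpk2. Just inside the rule were Cmpk2 and Rsad2, each at or above 1 FPKM in 7 libraries. Just outside was Herc6, in 2 libraries and at most 2.07 FPKM. Mx1, Mx2 and Zbp1 stayed below 1 FPKM in every library. Mx1, a classical interferon marker, had 0.270 to 0.566 FPKM in Vehicle and 0.289 to 0.912 with 25HC. It had 0.0509 to 0.298 with 25HC3S and 0.0744 to 0.248 with GW3965. Its values rest on 3 to 62 fragments, and it was not tested.

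The regulators and the ISG15 pathway give the pattern over all 20 libraries. Irf7 had 4.65, 3.05, 1.28, 0.575 and 3.82 FPKM in Vehicle replicates 1 to 5 and 5.05, 2.83, 3.26, 2.52 and 3.47 with 25HC. With 25HC3S it had 2.53, 2.87, 2.28, 3.32 and 2.75 and with GW3965 2.28, 1.79, 3.19, 1.30 and 1.68. Vehicle replicate 4 was the lowest of all and 25HC replicate 1 the highest, and the groups overlapped. Irf9, the DNA-binding part of the interferon response factor, had 7.45, 5.46, 6.81, 7.34 and 7.75 FPKM in Vehicle and 8.04, 7.05, 7.44, 6.11 and 6.90 with 25HC. It had 5.54, 6.50, 6.35, 6.64 and 7.10 with 25HC3S and 6.74, 6.62, 7.01, 5.74 and 5.75 with GW3965, a narrow and overlapping range in every group. Usp18, which removes ISG15 from proteins and damps the receptor, had 3.65, 4.65, 0.960, 0.938 and 2.74 FPKM in Vehicle and 3.56, 2.86, 2.60, 3.09 and 2.50 with 25HC. It had 1.50, 1.86, 1.88, 2.06 and 2.70 with 25HC3S and 1.95, 1.16, 3.02, 1.62 and 1.55 with GW3965. Vehicle replicates 3 and 4 were low here as in Irf7.

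Bst2 had 72.6, 58.7, 15.7, 13.9 and 51.9 FPKM in Vehicle and 69.6, 50.2, 54.6, 53.0 and 56.6 with 25HC. It had 21.3, 44.8, 35.8, 52.4 and 37.9 with 25HC3S and 43.2, 41.9, 57.3, 35.4 and 38.4 with GW3965. Psmb8, an immunoproteasome subunit that cuts peptides for class I molecules, had 3.82, 4.08, 2.30, 1.12 and 3.78 FPKM in Vehicle and 3.40, 2.98, 3.79, 4.25 and 4.02 with 25HC. It had 1.41, 2.79, 2.79, 3.39 and 2.71 with 25HC3S and 2.69, 2.68, 3.75, 2.78 and 3.43 with GW3965. Both genes were lowest in Vehicle replicates 3 and 4 and in 25HC3S replicate 1. None of Irf7, Irf9, Usp18, Bst2 and Psmb8 was called in any of the 6 comparisons of all libraries described below.

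**Figure D2:**
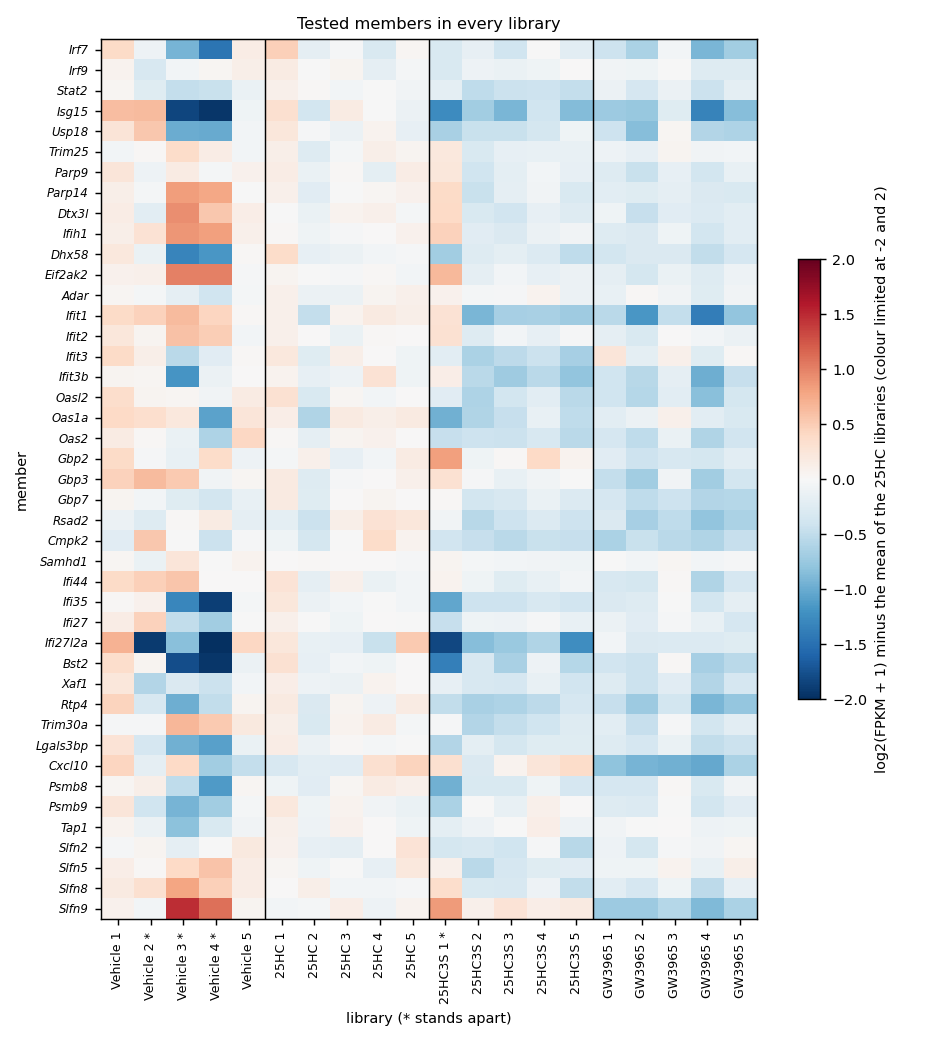
Level of the 43 tested members (rows, grouped by role) in the 20 libraries (columns), as log2(FPKM + 1) minus the mean of the 25HC libraries, with colours limited at -2 and 2. An asterisk marks the 4 libraries that stand apart. Blue is common in the columns of 25HC3S and GW3965, and Vehicle replicates 3 and 4 hold both strong blue and strong red.

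Differences between groups are given as differences of group means of log2(FPKM + 1) with their standard error (SE), so they understate changes of genes with low levels. They come from limma fitted over all 20 libraries and all 12752 genes. A member is called, or said to have fallen, at a Benjamini-Hochberg adjusted p under 0.05 within a comparison. Comparisons with the same control group share its libraries.

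The cultures expressed markers of the labelled cell type, and also those of fibroblasts, at a higher median sum (below). All 10 chondrocyte markers passed the rule, with a summed level of 1819 to 5114 FPKM in Vehicle, 3766 to 4138 with 25HC, 2505 to 3826 with 25HC3S and 3935 to 4886 with GW3965. Macrophage markers were present too, 13 of 14 passing the rule. Their sum was 443 to 1061 FPKM in Vehicle (891 to 1061 without the 4 libraries), 737 to 1047 with 25HC, 395 to 762 with 25HC3S (626 to 762 without replicate 1) and 935 to 1086 with GW3965. The ranges of 25HC3S and 25HC met only between 737 and 762 FPKM. Between these groups the macrophage receptors Mrc1, Adgre1 and Fcgr1 were called lower with 25HC3S and Cd14 higher, and with GW3965 against 25HC only Mrc1 of the macrophage markers was called, lower. Without the 4 libraries, 25HC3S against 25HC had 9 of the 13 macrophage markers lower and 1 higher, 3 of the 10 chondrocyte markers lower and 3 of the 6 fibroblast markers lower. GW3965 against 25HC then had 1 macrophage marker lower and 1 higher, 4 chondrocyte markers lower and 1 higher, and 2 fibroblast markers lower. With all libraries the median difference with 25HC3S against 25HC was -0.63 for macrophage, -0.23 for chondrocyte and -0.26 for fibroblast markers, beside -0.25 for the interferon-stimulated genes. With GW3965 against 25HC it was 0.02, -0.18 and -0.09, beside -0.26. In bulk RNA, fewer cells of a type and less RNA per cell cannot be told apart, and the part of these cell types in the members' differences was not tested. The 7 T and NK cell markers, 4 B cell and 6 neutrophil markers were below 1 FPKM in every library, and 4, 2 and 1 of them were at 0 throughout. Of 6 plasmacytoid dendritic cell markers 3 were below 1 FPKM in every library, of 5 endothelial markers 2 passed the rule, and all 6 fibroblast markers did. The sum of the fibroblast markers had a median of 4365 FPKM in Vehicle, 4726 with 25HC, 4149 with 25HC3S and 4698 with GW3965. The medians of the chondrocyte sum were lower, at 3527, 4059, 3455 and 4455 FPKM. These sums are of different genes and do not give shares of cells.

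With 25HC against Vehicle no member was called in either direction by limma, nor by limma's voom on the fragments. The limma fit without the 4 libraries called none either, where 0.00784% of all genes were lower and 0.0157% higher. At an unadjusted p under 0.05 there were 12 of the 43 (3863 of all 12752 genes). Over all genes 0.00784% were called lower and 0.0314% higher. The median difference of the members was 0.03, the same as the 0.03 of all genes, and 19 of the 43 differences were negative. Isg15 had 22.0, 22.1, 3.19, 2.87 and 13.1 FPKM in Vehicle replicates 1 to 5 and 17.7, 10.6, 15.7, 13.9 and 12.8 with 25HC. The 25HC libraries lay inside the range of Vehicle, whose replicates 3 and 4 were far below the other 3. The difference was 0.52 ± 0.41 (SE; limma adjusted p = 0.353), and it was -0.27 without the 4 libraries. Irf7, the factor that amplifies the response, went from 0.39 to -0.26 and Bst2 from 0.69 to -0.12 in the same way, none of them called. Without the 4 libraries the median of the members was -0.09 and 35 of 43 were negative. Leaving out Vehicle replicate 1 alone called 6 members higher and 2 lower, where 11.3% of all genes were higher and 9.52% lower. Leaving out Vehicle replicate 5 alone called 3 lower, where 7.35% of all genes were. In both of these fits the libraries that stand apart, Vehicle replicates 2, 3 and 4, made up most of the Vehicle group.

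With GW3965 against 25HC all 43 members had a negative difference, where 47.7% of all genes had one. Neither group holds a library that stands apart. The doses differed, 2 µM against 20 µM, so compound and dose cannot be told apart. Called lower were 4 members, Ifit1, Cxcl10, Rsad2 and Gbp7, where 0.894% of all genes were called lower and 0.847% higher. The median of the members was -0.26 and that of all genes 0.01. A fit of these 2 groups alone called 21 members lower and none higher, where 5.87% of all genes were called lower. The fit without the 4 libraries called 27 lower and none higher, where 6.82% of all genes were lower and 6.3% higher. With array weights, which let libraries that deviate count less, 27 members were lower (6.98% of all genes). The weights were 0.0436 to 0.159 for the 4 libraries and 1.41 to 2.66 for the others. This fit is therefore close to the one without the 4, here and below, and is not separate support. In 14 members the 5 GW3965 libraries were all below the 5 25HC libraries, where 5.72% of all genes were arranged so. Leaving out 1 library at a time left 1 to 6 members called, where 0.541 to 0.745% of all genes were lower.

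Ifit1 had 8.97, 5.69, 8.78, 9.52 and 9.02 FPKM in 25HC replicates 1 to 5 and 5.37, 3.12, 5.68, 2.55 and 4.35 with GW3965. The lowest 25HC library, replicate 2, stood close to the highest GW3965 library, and the ranges did not overlap. The difference was -0.87 ± 0.21 (limma adjusted p = 0.0350). Cxcl10 had 1.19, 1.36, 1.34, 2.40 and 2.70 FPKM with 25HC and 0.560, 0.429, 0.407, 0.350 and 0.755 with GW3965. The GW3965 libraries were all below 1 FPKM and rest on 14 to 29 fragments, against 50 to 121 with 25HC. Cxcl10 differed by -0.87 ± 0.21 (limma adjusted p = 0.0340). Rsad2 had 0.974, 0.669, 1.45, 1.75 and 1.63 FPKM with 25HC and 0.848, 0.420, 0.592, 0.299 and 0.460 with GW3965. A low 25HC library, replicate 2, overlapped the highest GW3965 library. Rsad2 fell by 0.58 ± 0.14 (limma adjusted p = 0.0383). Gbp7, a guanylate-binding GTPase that attacks vacuoles of intracellular pathogens, had 1.77, 1.08, 1.48, 1.55 and 1.46 FPKM with 25HC and 0.938, 0.729, 0.849, 0.632 and 0.658 with GW3965. Its groups did not overlap, and it differed by -0.48 ± 0.10 (limma adjusted p = 0.0125). The call of Gbp7 was kept without any 1 of the 10 libraries. The calls of Ifit1, Cxcl10 and Rsad2 ended in 7 of the 10 such fits each, with limma adjusted p up to 0.118, 0.119 and 0.137, and each 25HC and GW3965 library except 25HC replicate 2 ended at least 1 of them.

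Slfn9 had 9.46, 9.55, 10.9, 9.11 and 10.4 FPKM with 25HC and 5.57, 5.56, 6.34, 4.92 and 6.04 with GW3965. The ranges did not overlap, but the difference of -0.70 ± 0.23 was not called over all groups (limma adjusted p = 0.201), while the fit without the 4 libraries, with the same difference, called it (limma adjusted p = 7.56e-07). Isg15 had 8.05, 7.82, 11.6, 4.92 and 7.29 FPKM with GW3965, where only replicate 3 reached the range of 25HC, and its difference was -0.78 ± 0.41 (limma adjusted p = 0.789). Of the roles, the 3 oligoadenylate synthetase genes, which make the activator of RNase L, had a median of -0.39, the 3 guanylate-binding proteins -0.46 and the 3 nucleotide genes -0.54. The 4 IFIT genes had -0.32, the 3 PARP complex genes -0.26 and the 4 Schlafen genes -0.18. Ifit3 at -0.01, Samhd1 at -0.02 and Slfn5 at -0.02 were the members nearest to no difference.

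**Figure D3:**
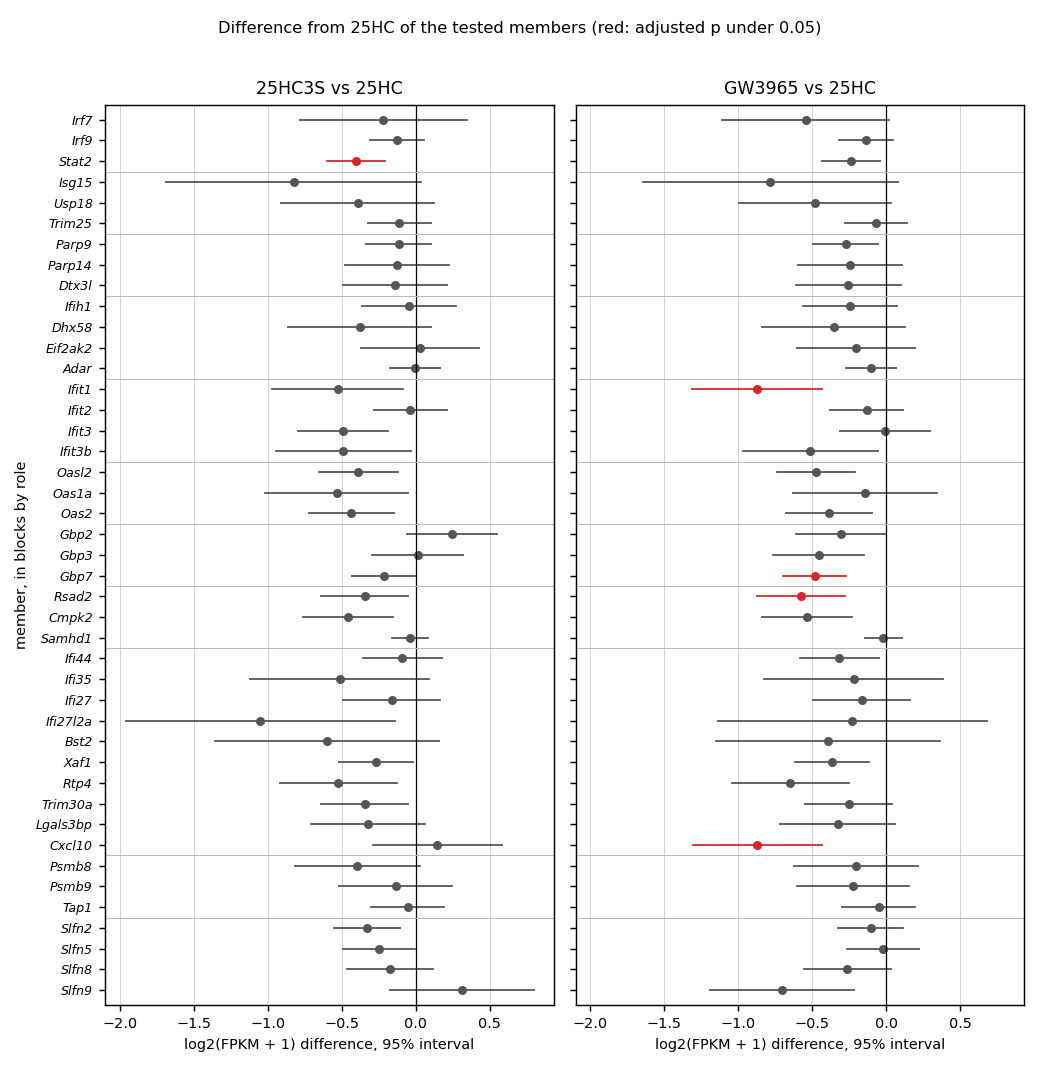
Difference of each tested member from 25HC, for 25HC3S (left) and GW3965 (right), in log2(FPKM + 1) with its 95% interval, in blocks by role. Red marks an adjusted p under 0.05: Stat2 on the left and Ifit1, Cxcl10, Rsad2 and Gbp7 on the right, where all 43 points are below 0.

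GW3965 against Vehicle gave the most calls of members in the fit of all libraries. Of the 43 members 13 fell and none rose, where 2.97% of all genes were called lower and 3.49% higher. Leaving out Vehicle replicate 3 or any 1 GW3965 library left 7 or 8 called. In those fits 216 to 281 of all 12752 genes were lower, against 379 with all libraries. Of the 13 macrophage markers tested, Mrc1 (-0.89) and Adgre1 (-0.32) were called lower here and 0 higher, while the median of the 13 was 0.37. Without the 4 libraries Mrc1 (-0.72) alone was called, and the median of the 13 was -0.04. The part of these markers was not tested. The median of the members was -0.28, that of all genes 0.02, and 32 of 43 were negative. The members that fell were Ifit1 and Ifit2, Slfn8 and Slfn9, Gbp3, Cxcl10, the double-stranded RNA sensor Ifih1, Ifi44, Oasl2, Parp14, Trim30a, Rsad2 and Cmpk2. In 12 members all GW3965 libraries were below all Vehicle libraries, where 3.29% of all genes were. Without the 4 libraries 21 members fell and none rose (3.79% and 3.98% of all genes), and the median was -0.42 with 43 of 43 negative. Of the 13 calls, 8 were kept then, and Cmpk2, Ifit2, Parp14, Rsad2 and Trim30a were lost. A fit of these 2 groups alone called only Ifit1 (limma adjusted p = 0.00876), and 0.533% of all genes lower. With array weights 24 members were lower (4.85% of all genes).

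Ifit1 had 11.1, 11.8, 13.3, 11.6 and 8.46 FPKM in Vehicle against 2.55 to 5.68 with GW3965. The lowest Vehicle library lay above the highest GW3965 library. It differed by -1.26 ± 0.21 (limma adjusted p = 0.000918), and by -1.08 without the 4 libraries. Slfn9 had 10.5, 9.51, 29.1, 22.2 and 10.3 FPKM in Vehicle, where replicates 3 and 4 stood far above the others and carry much of the mean. Its difference was -1.24 ± 0.23 (limma adjusted p = 0.00267), and -0.78 (limma adjusted p = 9.34e-06) without the 4 libraries. Gbp3 had 3.01, 3.51, 3.16, 1.78 and 1.98 FPKM in Vehicle and 1.09, 0.801, 1.78, 0.794 and 1.26 with GW3965. Its ranges met without overlapping, and it differed by -0.77 ± 0.15 (limma adjusted p = 0.00286) and by -0.71 without the 4 libraries. Ifih1, also known as MDA5, had 2.46, 2.92, 4.88, 4.63 and 2.43 FPKM in Vehicle and 1.67, 1.62, 2.01, 1.47 and 1.76 with GW3965. Again Vehicle replicates 3 and 4 were highest, and the difference of -0.68 ± 0.15 (limma adjusted p = 0.0100) became -0.35 without the 4 libraries. 

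Oasl2, of the oligoadenylate synthetase family, had 3.53, 2.68, 2.65, 2.37 and 2.97 FPKM in Vehicle and 1.67, 1.37, 2.06, 0.990 and 1.76 with GW3965, without overlap. It differed by -0.59 ± 0.13 (limma adjusted p = 0.00844) and by -0.74 without the 4 libraries. Ifi44 had 3.69, 4.04, 4.29, 2.65 and 2.62 FPKM in Vehicle and 1.90, 1.82, 2.66, 1.37 and 1.86 with GW3965. GW3965 replicate 3 reached the lowest Vehicle libraries, and the difference was -0.61 ± 0.13 (limma adjusted p = 0.00675) and -0.51 without the 4. Slfn8, a neighbour of Slfn9, had 3.58, 4.05, 5.96, 4.59 and 3.49 FPKM in Vehicle and 2.47, 2.20, 2.81, 1.82 and 2.59 with GW3965. Its ranges did not overlap, and it differed by -0.65 ± 0.14 (limma adjusted p = 0.00794) and by -0.43 without the 4. Parp14, an ADP-ribosyltransferase, had 3.93, 3.41, 7.14, 6.74 and 3.54 FPKM in Vehicle and 2.91, 2.85, 3.00, 2.72 and 2.70 with GW3965. Vehicle replicates 3 and 4 were again the highest. Cmpk2 had 0.849, 2.15, 1.16, 0.613 and 1.13 FPKM in Vehicle and 0.408, 0.587, 0.499, 0.433 and 0.577 with GW3965, from 31 to 43 fragments. Ifit2, which binds AU-rich RNA, had 8.85, 7.79, 11.7, 10.9 and 7.14 FPKM in Vehicle and 6.42, 5.80, 7.47, 7.16 and 6.75 with GW3965. The Ifit2 ranges overlapped and those of Cmpk2 and Parp14 did not.

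The calls of these 7 genes, Ifit1, Slfn9, Gbp3, Ifih1, Oasl2, Ifi44 and Slfn8, were kept without any 1 of the 10 libraries. With all libraries, and then without the 4, the differences were -0.77 and -0.85 for Cxcl10, -0.58 and -0.30 for Parp14, -0.52 and -0.34 for Trim30a, -0.50 and -0.42 for Rsad2, -0.50 and -0.40 for Cmpk2, and -0.40 and -0.22 for Ifit2. The calls of these 6 each ended in 5 to 7 of those fits, with limma adjusted p up to 0.134. Vehicle replicates 2, 3 and 4 and each of the 5 GW3965 libraries were among those whose removal ended a call. Eif2ak2 (PKR), the kinase that stops translation when it meets double-stranded RNA, had 11.2, 11.4, 22.1, 22.2 and 10.4 FPKM in Vehicle and 9.23, 8.07, 9.49, 8.69 and 9.72 with GW3965. No GW3965 library reached the Vehicle range, but Vehicle replicates 3 and 4 were far above the others, and the difference of -0.64 ± 0.19 was not called (limma adjusted p = 0.0504). Without the 4 libraries it was -0.23 (limma adjusted p = 0.0230). Isg15 had -0.26 with all libraries and -1.05 without the 4, and was called only in the latter (limma adjusted p = 0.0135). Irf7 had -0.15 and -0.81, and likewise was called only in the latter (limma adjusted p = 0.0236).

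**Figure D4:**
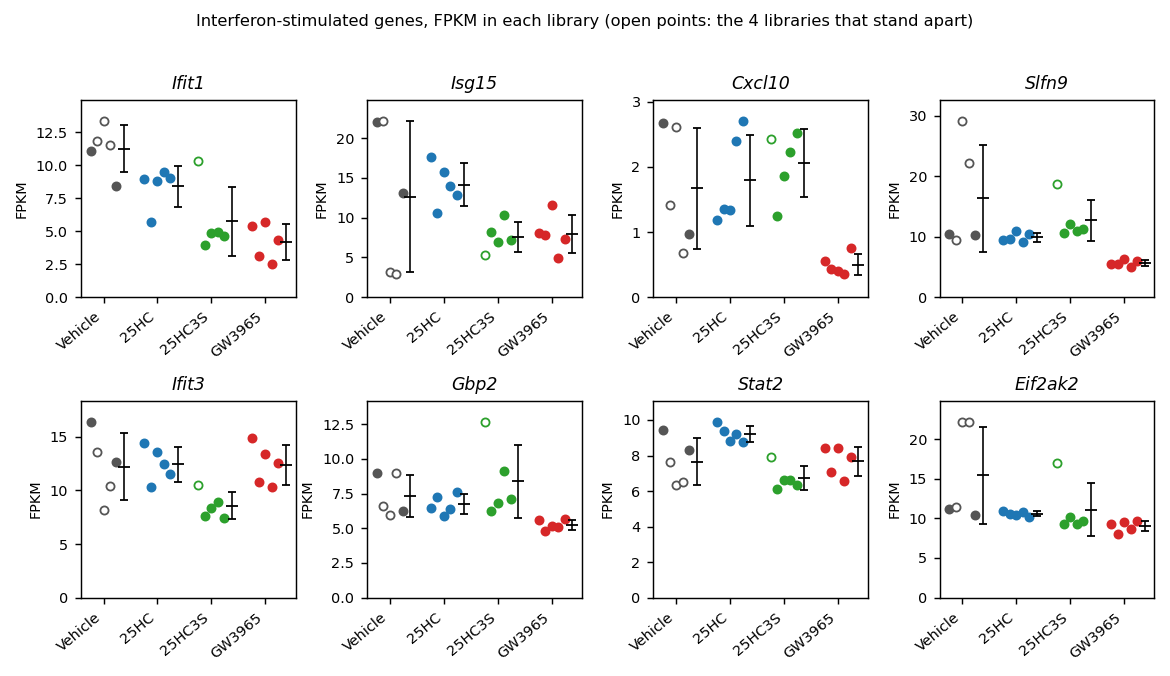
FPKM of 8 members in each library, by group. Points are libraries, open where a library stands apart, and the bar beside them is the mean with its SD over 5 libraries. Cxcl10 and Slfn9 are low in all 5 GW3965 libraries, and Stat2 is lower with 25HC3S than with 25HC. Vehicle replicates 3 and 4 are low for Isg15 and high for Slfn9.

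25HC3S and 25HC were given at the same dose of 20 µM and differ by the sulfate. Of the 43 members 1 fell and none rose with 25HC3S against 25HC, where 0.659% of all genes were called lower and 0.157% higher. The gene was Stat2, the partner of Irf9 in the interferon response factor. The median of the members was -0.25, that of all genes 0.00, and 38 of 43 were negative, against 48.7% of all genes. In 10 members all 25HC3S libraries were below all 25HC libraries (4.02% of all genes). Without 25HC3S replicate 1, and without the 3 Vehicle libraries that share the estimate of the spread, 15 members fell and none rose (4.7% and 2.49% of all genes), Stat2 among them. The macrophage marker sum was also lower in most 25HC3S libraries (above), and its part was not tested. A fit of the 2 groups alone called 5 lower (1.36% of all genes), and array weights 22 (5.42%).

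Stat2 had 9.90, 9.36, 8.82, 9.19 and 8.74 FPKM with 25HC and 7.90, 6.13, 6.60, 6.64 and 6.36 with 25HC3S. The groups did not overlap, and replicate 1, the library that stands apart, was the highest with 25HC3S. The difference was -0.40 ± 0.09 (limma adjusted p = 0.0492), and -0.46 (limma adjusted p = 0.000348) without the 4 libraries. Leaving out any 25HC library, or any of 25HC3S replicates 2 to 5, ended the call, with limma adjusted p up to 0.163. In Vehicle Stat2 had 9.46, 7.66, 6.33, 6.48 and 8.33 FPKM, and with GW3965 8.43, 7.08, 8.40, 6.57 and 7.92. Both of these ranges overlapped that of 25HC3S. The mean was highest with 25HC, at 9.20 FPKM, against 7.65 in Vehicle, 6.73 with 25HC3S and 7.68 with GW3965. Ifit1 had 10.3, 3.93, 4.87, 4.94 and 4.64 FPKM with 25HC3S. Replicate 1 was far above the rest and inside the range of 25HC, and the others were below every 25HC library. Its difference from 25HC was -0.53 ± 0.21 (95% interval -0.97 to -0.09; limma adjusted p = 0.501), and -0.73 (limma adjusted p = 0.0176) without the 4 libraries. Isg15 had 5.26, 8.25, 6.94, 10.3 and 7.21 FPKM with 25HC3S, all below the 25HC libraries. The difference was -0.83 ± 0.41 (95% interval -1.69 to 0.03; limma adjusted p = 0.739) and -0.72 (limma adjusted p = 0.0368) without them. Ifit3 had 14.5, 10.3, 13.6, 12.5 and 11.5 FPKM with 25HC and 10.5, 7.66, 8.36, 8.95 and 7.40 with 25HC3S, with replicate 1 again the highest. Its difference was -0.49 ± 0.14 (limma adjusted p = 0.187), and -0.56 (limma adjusted p = 0.00478) without the 4 libraries.

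Cxcl10 and Slfn9, which were low with GW3965, had positive, uncalled differences with 25HC3S against 25HC. Cxcl10 had 2.42, 1.24, 1.86, 2.23 and 2.53 FPKM with 25HC3S, all inside the range of 25HC. Its difference was 0.14 (95% interval -0.29 to 0.58; limma adjusted p = 0.863), and 0.10 without the 4 libraries. Slfn9 had 18.7, 10.6, 12.2, 11.0 and 11.3 FPKM with 25HC3S, with replicate 1 the highest. Its difference was 0.31 (95% interval -0.18 to 0.79; limma adjusted p = 0.834), and 0.17 without them. Both intervals reach from below 0 to above 0, so they do not show that the compounds act alike on these genes.

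Against Vehicle, 25HC3S gave 4 lower members and none higher, where 1.14% of all genes were called lower and 0.463% higher. They were Ifit1, at -0.92 ± 0.21 (limma adjusted p = 0.0310), Trim30a, a regulator of inflammatory signalling, at -0.61 ± 0.14 (limma adjusted p = 0.0314), and the Schlafen genes Slfn5 at -0.50 ± 0.12 (limma adjusted p = 0.0318) and Slfn8 at -0.56 ± 0.14 (limma adjusted p = 0.0484). Slfn5 had 3.44, 3.16, 4.38, 5.03 and 3.53 FPKM in Vehicle and 3.37, 1.81, 2.21, 2.45 and 2.48 with 25HC3S. Trim30a had 3.64, 3.68, 6.53, 5.82 and 4.43 FPKM in Vehicle and 3.65, 2.16, 2.42, 2.62 and 2.98 with 25HC3S. In both genes Vehicle replicates 3 and 4 were the highest and the ranges overlapped. Of the macrophage markers, Mrc1 (-1.80), Adgre1 (-0.83) and Fcgr1 (-0.84) were also lower in this comparison and Cd14 (0.75) higher. On leaving out the 4 libraries 7 of the 13 were lower and 1 higher, with a median of -0.67, and the fibroblast markers Col3a1 and Dpt and the chondrocyte marker Matn1 were lower too. Their part was not tested. The median of the members was -0.25, that of all genes 0.02, and 33 of 43 were negative. Without the 4 libraries 15 members fell and none rose (2.63% and 1.33% of all genes), Ifit1 (-0.94), Trim30a (-0.51), Slfn5 (-0.47) and Slfn8 (-0.48) among them, and Isg15 (-0.99, limma adjusted p = 0.0395), Stat2 (-0.41, limma adjusted p = 0.00869) and Ifi27l2a (-1.41, limma adjusted p = 0.00133) too. A fit of the 2 groups alone called none, where 0.133% of all genes were lower, and array weights 19 (3.81%). Leaving out Vehicle replicate 3 or 4, or any of 25HC3S replicates 2 to 5, left 0 to 2 called. In those fits 74 to 113 of all 12752 genes were lower. Leaving out 25HC3S replicate 1 gave 7, where 252 of all genes were lower. Each of the 4 calls ended in 6 or 7 of the 10 fits that leave out a library, with limma adjusted p up to 0.149: Vehicle replicate 3 or 4 or any of 25HC3S replicates 2 to 5 for each of them, and Vehicle replicate 2 for Slfn8.

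GW3965 at 2 µM was compared with 25HC3S at 20 µM, and the macrophage sums did not overlap (935 to 1086 against 395 to 762 FPKM). Called lower were 3, Cxcl10, Slfn9 and Gbp2, where 2.13% of all genes were called lower and 2.51% higher, and none was called higher. Of the 13 macrophage markers 6 were higher and 1 lower, and 10 and 1 without the 4 libraries, and their part was not tested. A fit of the 2 groups alone called 2 higher (4.47% of all genes) and array weights 4 (9.69%). Leaving out 25HC3S replicate 1 alone called 1 higher, where 278 of all 12752 genes were higher. The median of the members was -0.08, that of all genes 0.00, and 27 of 43 were negative. Cxcl10 differed by -1.01 ± 0.21 (limma adjusted p = 0.00452) and Slfn9 by -1.01 ± 0.23 (limma adjusted p = 0.0113), both kept without any 1 of the 10 libraries, with -0.97 and -0.88 without the 4. Gbp2 had 12.7, 6.27, 6.81, 9.14 and 7.09 FPKM with 25HC3S and 5.60, 4.79, 5.15, 5.06 and 5.64 with GW3965. The groups did not overlap, 25HC3S replicate 1 was the highest, and the difference was -0.55 ± 0.14 (limma adjusted p = 0.0316), and -0.40 without the 4. The call ended without 25HC3S replicate 1 or 4, or without any 1 GW3965 library, with limma adjusted p up to 0.087. Leaving out the 4 libraries, 4 of the 43 members were lower and 4 higher, near the shares of all genes (8.59% and 9.27%). Those higher with GW3965 were Ifi27l2a (0.63), Ifit3 (0.55), Slfn5 (0.31) and Stat2 (0.22), and those lower were Gbp3 (-0.39) and the 3 above. Ifit3 had 14.9, 10.8, 13.4, 10.4 and 12.5 FPKM with GW3965, a range that only replicate 1 of 25HC3S reached.

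The members also deviated together between libraries of the same group. In GW3965 replicate 4, 40 of 43 members were below the mean of the other 4 replicates (48.8% of all genes), and in GW3965 replicate 3, 39 were above it (51.2% of all genes). In 25HC replicate 2, 38 were below the mean of its other replicates (47.9% of all genes), and in 25HC replicate 1, 36 were above it (48.0% of all genes). The medians of these deviations were -0.17, 0.17, -0.20 and 0.13 in log2(FPKM + 1). They are of the same order as the medians between groups, so the members are not independent repeats of a difference.

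The 4 libraries that stand apart did not shift the members in 1 direction. In Vehicle replicates 3 and 4 and 25HC3S replicate 1, 16 members were below the libraries of their group that do not stand apart and 12 were above them in all 3, with 15 mixed. The 16 lower members, Isg15, Bst2, Irf7, Usp18, Psmb8 and Irf9 among them, had genes of 463 to 5476 bases with a median of 2763. The 12 higher, Eif2ak2, Slfn9, Parp14, Ifih1 and Rsad2 among them, had 2656 to 9306 bases with a median of 5419. Over the 43 members the Spearman correlation of the deviation with gene length was 0.60, 0.60 and 0.44 in these 3 libraries, and 0.38, 0.36 and 0.38 over all 12752 genes. In Vehicle replicate 2, the fourth library that stands apart, it was -0.13 over the members. In the 16 other libraries it ran from -0.43 to 0.43 over the members, both ends in Vehicle replicates 1 and 5, which were each set against the other alone, and from -0.21 to 0.19 over all genes. Among the 25HC, 25HC3S and GW3965 libraries that do not stand apart, the correlation over the members ran from -0.33 to 0.29. The points share 1 library each, and the part of gene length in the differences was not tested. In the results above, the members with high Vehicle values in these libraries include Slfn9, Ifih1 and Parp14, and those with low ones Isg15 and Irf7.

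**Figure D5:**
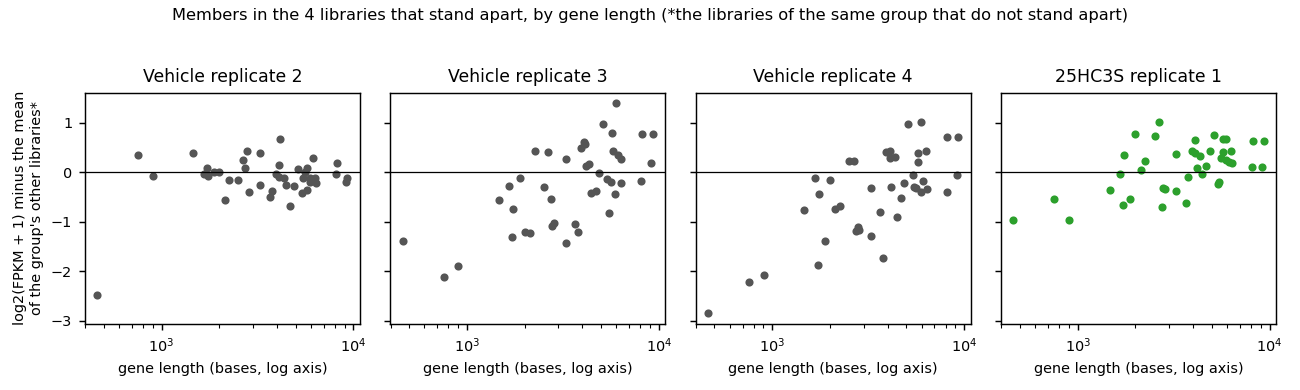
Deviation of each tested member in the 4 libraries that stand apart, in log2(FPKM + 1) from the libraries of the same group that do not, against gene length in bases on a log axis. Each point is a member. In Vehicle replicates 3 and 4 short genes lie low and long genes high, with Spearman correlations of 0.60 and 0.60, while in Vehicle replicate 2 it was -0.13.

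The rest of the pathway was read from 9 lists of 118 further genes, of which 84 were tested. None of the 10 interferon genes passed the rule, and the highest value of any of them in any library was 0.0729 FPKM, for Ifnb1. Receptor and signalling genes were expressed. Ifnar1 had 14.4 ± 0.507 FPKM (SD, n = 5) and Ifnar2 10.2 ± 0.903 with 25HC, and Jak1 39.5 ± 1.05. None of the 5 receptors tested was called with GW3965 or 25HC3S against 25HC, with or without the 4 libraries. Irf3, the factor that starts interferon production, differed by 0.09 with GW3965. Ch25h differed by -0.34 with 25HC3S and -0.45 with GW3965 against 25HC. Neither was called with all libraries, and the latter was without the 4 (limma adjusted p = 0.00506). With GW3965 against 25HC 2 of the 84 fell and none rose (0.894% and 0.847% of all genes), the GTPase Iigp1 (-0.63, limma adjusted p = 0.0181) and Phf11d (-0.49, limma adjusted p = 0.0112). In the fit without the 4 libraries, with the same differences, 17 of the 84 were lower and 2 higher (6.82% and 6.3% of all genes), the higher being Irf8 (0.41) and H2-K1 (0.28).

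With GW3965 against Vehicle 4 of the 84 fell and 4 rose (2.97% and 3.49% of all genes). Those that fell were Iigp1 (-0.74), the RNA sensor Ddx58 (-0.63), also called RIG-I, Ifi203 (-0.59) and Phf11d (-0.54). Those that rose were Irf8, a factor of myeloid cells (0.77, limma adjusted p = 0.000358), the class I molecule H2-K1 (0.69), Il10rb (0.43) and the adaptor Mavs (0.24). When the 4 libraries were left out, 12 were lower and 1 higher (3.79% and 3.98% of all genes), and Ch25h went from -0.16 to -0.86 (limma adjusted p = 0.000467). Irf8 (0.46), Iigp1 (-0.55), Ddx58 (-0.41), Ifi203 (-0.48) and Phf11d (-0.42) kept their calls, while H2-K1 (0.21), Il10rb (0.09) and Mavs (0.19) lost theirs. With 25HC3S against Vehicle 3 fell and none rose (1.14% and 0.463% of all genes): Lgals9 (-0.51) and the endosomal RNA receptors Tlr7 (-0.79) and Tlr8 (-0.80), all 3 kept without the 4 libraries (-0.59, -0.67 and -0.72). Then 7 were lower, Ch25h (-0.60, from -0.05 with all libraries) among them, and 1 higher, the cytokine signalling inhibitor Socs3 (0.39), against 2.63% and 1.33% of all genes.

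With 25HC3S against 25HC none of the 84 was called by limma with all libraries (0.659% of all genes lower and 0.157% higher). In the fit without the 4 libraries 8 were lower and 2 higher (4.7% and 2.49% of all genes). Among those lower were Tlr8 (-0.65), Tlr7 (-0.60), Irf8 (-0.37) and Lgals9 (-0.36), and those higher were Socs3 (0.31) and the adaptor Traf3 (0.19). Socs3 and Traf3 are named after their values were seen. With 25HC against Vehicle none of the 84 was called by limma with or without the 4 libraries. With GW3965 against 25HC3S 3 of the 84 rose and 1 fell (2.51% and 2.13% of all genes). Irf8 (0.81), Tlr8 (0.63) and Lgals9 (0.44) rose and Pml (-0.31), a nuclear body protein, fell, with 0.78, 0.72, 0.38 and -0.30 without the 4, where 6 were higher and 6 lower (9.27% and 8.59% of all genes).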

How the data were processed

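The authors deposited 1 table of FPKM, with gene positions and lengths, for 20 libraries. The tools HISAT2 2.0.5 and CASAVA 1.8 are listed per the submitters' processing notes, and per the labels' protocols the RNA came from a Trizol extraction. For the counting program, strand setting and build, the entry is "not given in the sources used here". FPKM times gene length gave whole fragments (within 0.001) for 100% of values. From the FPKM, log2(FPKM + 1) was fitted with limma 3.58.1 in R 4.3.3, with a mean per group over 20 libraries, a trended prior and two-sided tests, for the 12752 genes kept by the rule. P-values were adjusted by Benjamini-Hochberg over all of them in each of 6 comparisons, and the steps were tested on simulated data. The simulation gave every library the same spread and held none that stands apart, so it does not test the effect of such libraries. The members, lists and tests were chosen with earlier results of these data known. Named are the 17 members called in any comparison and others by role, 25 in all, and members used as examples. The values of 1 gene of the pathway lists are not reported here, and it is included in their counts. The alternatives were a pseudocount of 0.1, all genes above 0 FPKM in any library, only the 2 groups, a replicate block, other scalings, array weights, voom on fragments and each library left out. Leaving out the 4 libraries was added after seeing the data. Intervals are 95% intervals of the model.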

Additional observations from a re-analysis of the deposited data

Results flagged for a closer look

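Of 100 groups of 5 libraries tested, 7 held a library far from the other 4, where chance gives about 1 in 20. In 25HC3S replicate 1, which stands apart by its number of genes with 1 fragment, 6 members were above the other replicates: Ifit1 at 10.3 FPKM (next highest 4.94), Slfn9 at 18.7 (12.2), Eif2ak2 at 17.0 (10.2), Ifih1 at 3.40 (2.05), Gbp3 at 2.59 (1.89) and Stat2 at 7.90 (6.64). Ifit1 also had a low value in 25HC replicate 2, 5.69 FPKM against 8.78 in the next lowest library.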

How the results depend on the processing

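Low levels limit the fold changes of Cmpk2, Rsad2, Gbp7 and Cxcl10, whose fragments are few, and the 2 Vehicle libraries left without the 4 give little hold on that group's spread. Members called lower, in the order 25HC3S and GW3965 against Vehicle, then 25HC3S and GW3965 against 25HC, were 4, 13, 1 and 4. In a fit of the 29742 genes with FPKM above 0 in any library they were 0, 7, 0 and 1 (0.393, 0.878, 0.242 and 0.303% of these genes). With only the 2 groups compared they were 0, 1, 5 and 21, with array weights 19, 24, 22 and 27, and without the 4 libraries 15, 21, 15 and 27. Scaling to equal totals and voom each gave 0 for 25HC3S against 25HC (0.62 and 0.549% of all genes). Members higher with GW3965 than with 25HC3S were 0, and 2 with the 2 groups alone, 4 with array weights and 4 without the 4 libraries. The causes were not tested. Leaving out 1 library gave, for 25HC against Vehicle, 0 to 3 lower (0 to 9.52% of all genes) and 0 to 6 higher (0.00784 to 11.3%). For 25HC3S against Vehicle it gave 0 to 7 lower (0.58 to 2.22%), and for GW3965 against Vehicle 7 to 18 (1.69 to 11.2%). Against 25HC it gave 0 to 1 lower with 25HC3S (0.423 to 0.659%) and 1 to 6 with GW3965 (0.541 to 0.745%). For GW3965 against 25HC3S it gave 2 to 3 lower (1.59 to 1.94%) and 0 to 1 higher (1.83 to 2.18%).

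Some differences that were not called with all libraries changed sign. With all libraries they were 0.69 for Bst2, 0.39 for Irf7 and 0.52 for Isg15 with 25HC against Vehicle, 0.12 for Dhx58, 0.56 for Ifi27l2a and 0.12 for Lgals3bp with GW3965 against Vehicle, and 0.11 for Ifi35 with 25HC3S against Vehicle. With array weights, and without the 4 libraries, those for 25HC against Vehicle were -0.0114 and -0.1191 for Bst2, -0.1727 and -0.2638 for Irf7, and -0.1379 and -0.269 for Isg15. Those for GW3965 against Vehicle were -0.4216 and -0.4784 for Dhx58, -0.6139 and -0.7788 for Ifi27l2a, and -0.3134 and -0.4007 for Lgals3bp. For Ifi35 with 25HC3S against Vehicle they were -0.3477 and -0.3721. Called lower among these were Dhx58 under both (limma adjusted p = 0.0201 and 0.0191) and, without the 4 libraries, Ifi27l2a (limma adjusted p = 0.0268), Lgals3bp (limma adjusted p = 0.0254) and Ifi35 (limma adjusted p = 0.0336). Leaving out Vehicle replicate 3, then 4, gave -0.0926 and -0.054 for Dhx58, -0.0115 and -0.0428 for Lgals3bp, and -0.0612 and -0.2042 for Ifi35. Leaving out Vehicle replicate 1 gave 0.0441 for Irf7 and 0.0276 for Isg15 with GW3965 and 0.11 for Ifi27l2a with 25HC3S. Over single libraries left out, the far ends of these ranges were 0.2891 for Dhx58, 0.2965 for Lgals3bp, -0.4168 for Irf7 and -0.6159 for Isg15 with GW3965, and -0.6364 for Ifi27l2a and 0.2883 for Ifi35 with 25HC3S. Ch25h with 25HC3S against Vehicle had 0.0019 on scaling to equal totals and -0.2384 to 0.1582 over single libraries left out, and with GW3965 -0.3487 to 0.0478, while Socs3 with 25HC3S against 25HC had -0.0053 (without 25HC3S replicate 4) to 0.3059. Without Vehicle replicate 2 Isg15 had 0.0286 with GW3965, and without Vehicle replicate 5 Ifi27l2a had 0.0388 with 25HC3S.

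Same-numbered libraries deviated together with r over 0.1 in 4 of 30 pairs of groups (-0.70 to 0.27), and 3 of 20 libraries were closest to their own number. The check showed no pairing by number. It cannot exclude a weak pairing, since the libraries that stand apart enter it, and the labels state none. With the replicate block the members called lower were 0, 4 (0.902% of all genes) and 11 (2.09%) for 25HC, 25HC3S and GW3965 against Vehicle, 1 (0.557%) and 4 (0.784%) for 25HC3S and GW3965 against 25HC, and 3 (1.82%) for GW3965 against 25HC3S, where 1 was higher (2.16%).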
